A study of Mus musculus with 5 samples.

Results

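RNA levels of 36 genes for excision repair, mismatch repair, end joining and direct reversal of DNA damage were followed across 5 libraries of LLC, a mouse Lewis lung carcinoma line. The genes were listed by name and repair role: 13 for nucleotide excision repair, 12 for base excision repair, 7 for end joining, 3 for mismatch repair and 1 for direct reversal. Of the 36 genes, 35 were among the 13979 gene symbols that 3 deposited tables share. The exception was NHEJ1, a factor that aligns DNA ends for ligation, which these 3 tables do not list.

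The 5 groups were a control (Control), the PARP inhibitor BMN673 alone (BMN), the azacytidine-conjugated polymer alone (PAZA) and BMN carried by PAZA at 2 doses (BMN/PAZA_Low_dose and BMN/PAZA_High_dose, hereafter low dose and high dose). Each group had 1 library, so no difference has a replicate check and no p-value was computed. The sample labels describe cultured cells treated for 72 h, whereas the study's text describes LLC tumors grown in mice and collected after the last treatment. Strain, age and pooling of animals are not given in the labels, and the BMN group carried no polymer by its label.

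Values are FPKM (fragments per kilobase of transcript, adjusted for library size), deposited by the authors without read counts, and the sequencing depth is unknown. Each column was brought to a sum of 1000000 over the 13979 shared symbols, and levels below are in these scaled FPKM. Fold changes are on the log2(scaled FPKM + 1) scale, which understates the change of low genes. A gene was counted as higher or lower when it passed 1.5-fold on that scale, and the same count over all shared symbols is given beside it as the background.

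Excision repair removes damage from one DNA strand and copies the other. In base excision repair a glycosylase cuts out a single altered base, an endonuclease opens the backbone, and a polymerase and a ligase close the gap. In nucleotide excision repair a damage sensor, a helicase and a pair of nucleases remove a short stretch that holds a bulky lesion. Mismatch repair corrects copying errors, non-homologous end joining rejoins broken ends, and MGMT takes an alkyl group off guanine directly. PARP enzymes bind the strand breaks that base excision repair opens, and azacytidine traps DNA methyltransferases on DNA and lowers methylation.

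Promoter sequence of 31 of the 36 genes was found in the RefSeq table of GRCm38.p6, and the first listed start was used where a gene had several. The 250 bases before the start of 3 genes are shown, chosen after values were seen among windows that lie outside annotated exons and outside their gene. RAD23B and MSH6 were 2 of the 14 of 35 members below Control in all 3 libraries with PAZA, a share near the 38% of all symbols (with the median-ratio scaling explained with the levels of RAD23B, 8 members, these 2 among them, beside 28.8%). The 3 comparisons share the Control library. The BMN value of FEN1 stood at a fixed multiple of its low-dose value. CG dinucleotides, the sites of DNA methylation, are in capitals, and each sequence runs 5′ to 3′ on the strand of its gene.
RAD23B (chr4:55349792-55350041, plus strand): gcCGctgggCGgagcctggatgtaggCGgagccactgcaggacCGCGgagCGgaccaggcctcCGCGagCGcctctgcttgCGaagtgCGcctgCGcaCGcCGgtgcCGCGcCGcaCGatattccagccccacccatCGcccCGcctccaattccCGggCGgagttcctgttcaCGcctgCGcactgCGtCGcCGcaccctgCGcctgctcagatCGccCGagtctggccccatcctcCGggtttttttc
MSH6 (chr17:87974800-87975049, plus strand): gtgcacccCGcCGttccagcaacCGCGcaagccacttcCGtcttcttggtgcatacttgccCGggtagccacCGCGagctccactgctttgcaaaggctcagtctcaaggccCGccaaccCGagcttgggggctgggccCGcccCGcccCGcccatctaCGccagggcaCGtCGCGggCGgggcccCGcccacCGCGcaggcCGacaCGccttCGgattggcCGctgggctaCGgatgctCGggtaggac
FEN1 (chr19:10204394-10204643, minus strand): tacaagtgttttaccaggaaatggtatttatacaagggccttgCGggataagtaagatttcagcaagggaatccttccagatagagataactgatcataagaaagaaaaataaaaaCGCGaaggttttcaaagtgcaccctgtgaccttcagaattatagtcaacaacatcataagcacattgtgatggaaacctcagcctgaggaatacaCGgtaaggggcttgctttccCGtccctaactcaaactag
The RAD23B window held 31 CG, the MSH6 window 27 and the FEN1 window 5, and these counts do not stand for the other members below Control, since the LIG1 window held 3. Over the 31 windows the median was 15 CG, from that of LIG1 to that of RAD23B, and 80.6% held at least 10. Of 10753 shared symbols with a promoter in the table, 69.3% held at least 10 CG, with the same median of 15, and 38.2% of all 27025 RefSeq promoters did. No methylation was measured in these samples.

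Markers of cell types other than carcinoma were present in the libraries. All 6 fibroblast markers, including COL3A1 and DCN, were above 0 in every library, and their summed level ran from 313 scaled FPKM in Control to 817 in BMN. The 6 leukocyte markers summed to between 129 and 179, with CD79A at 0 in BMN and CD3E at 0 in the high dose, and the 5 endothelial markers to between 35.9 and 61.5. Sums of the 6 skeletal muscle markers ran from 8.18 in Control to 190 in the high dose, with CKM at 0 in the low dose. The 4 epidermal keratins in the tables ran from 1.85 in the low dose, where KRT5 and KRT1 were at 0, to 201 in BMN. The part of these cell types in the levels of repair genes was not tested, and fewer cells of a type and less RNA per cell cannot be told apart.

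In the BMN library 13 of the 35 repair genes stood at 2 times the low-dose library, to within 0.5%. The comparison used the low-dose values of the table with PAZA, brought to the scale of the BMN table by a median ratio of 1.047. These 13 ratios ran from 1.9993 to 2.00001. On the scaled columns in which levels are given, the low dose was 0.445 to 0.446 times BMN in all 13. Over all symbols 156 of 13594, or 1.15%, stood at this multiple, against 37.1% of the repair genes. The repair genes were listed with earlier results of these data known, so the 2 shares are not an independent comparison.

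Most of the 13 genes were nucleotide excision genes. They held 10 of the 13 nucleotide excision genes (ERCC1, ERCC2, ERCC3, ERCC4, ERCC5, ERCC8, XPC, DDB1, DDB2 and LIG1) and 3 of the 12 base excision genes (MPG, POLB and FEN1). None of the 6 end joining, 3 mismatch and 1 direct reversal genes in the tables was among them. The members nearest outside were DCLRE1C at 1.77 and MSH6 at 1.59, and the lowest was MUTYH at 0.0470, so no gene lay close to the edge of the window. A further 48 genes of these pathways from a written list held 10 at this multiple, again in nucleotide excision (GTF2H1, GTF2H3, GTF2H5, CETN2, RBX1, RPA2 and RPA3) and base excision (POLL, PCNA and POLD1). Of 16 proliferation genes 1, TYMS, stood at it, and of the cell type markers none.

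The same 13 genes differed from the other members in how their values repeated between tables. DDB1, the adaptor of the UV damage sensor, was listed for the low dose at 258 FPKM in the table with PAZA and at 437 FPKM in the table with BMN. After the median ratio between these tables, the second value was 1.62 times the first. Over the 13 genes this ratio ran from 0.484 in ERCC1 to 3.03 in ERCC5, whereas it was 1 in the other 22 members to within 0.5%. The PAZA values of the 13 also differed between the tables, being 1.08 times as high in the table with Control after the median ratio, and those of the other 22 did not. BMN and high-dose values of all 35 members repeated exactly in the tables that share them.

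The significant digits of the listed values were also counted. In the table with BMN, 5 of their 13 low-dose values had at most 6 significant digits, and 13 of 13 had after division by 1.5. Among divisors from 1.05 to 4 in steps of 0.05, the next best, 3, reached 10 of 13. All 22 other members had at most 6 digits as listed, and 8 of the 22 had after division by 1.5. Divided by 1.5 and scaled as the BMN column, these 13 values lay between 0.572 and 1.35 times Control, with a median of 1.08, and none passed 1.5-fold on the log2(value + 1) scale. Treated the same way, the 22 others lay between 0.312 and 1.27 times Control, with a median of 0.719. Of these, 6 passed 1.5-fold on that scale, and NEIL1, at 0 in Control, has no ratio. How the values came to stand at these multiples was not tested, and each comparison with BMN is given with and without the 13 genes. Low-dose levels below are those of the table with the high dose. For the 13 genes the table with BMN lists other low-dose values, so their low-dose levels and folds depend on the table used.

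**Figure D1:**
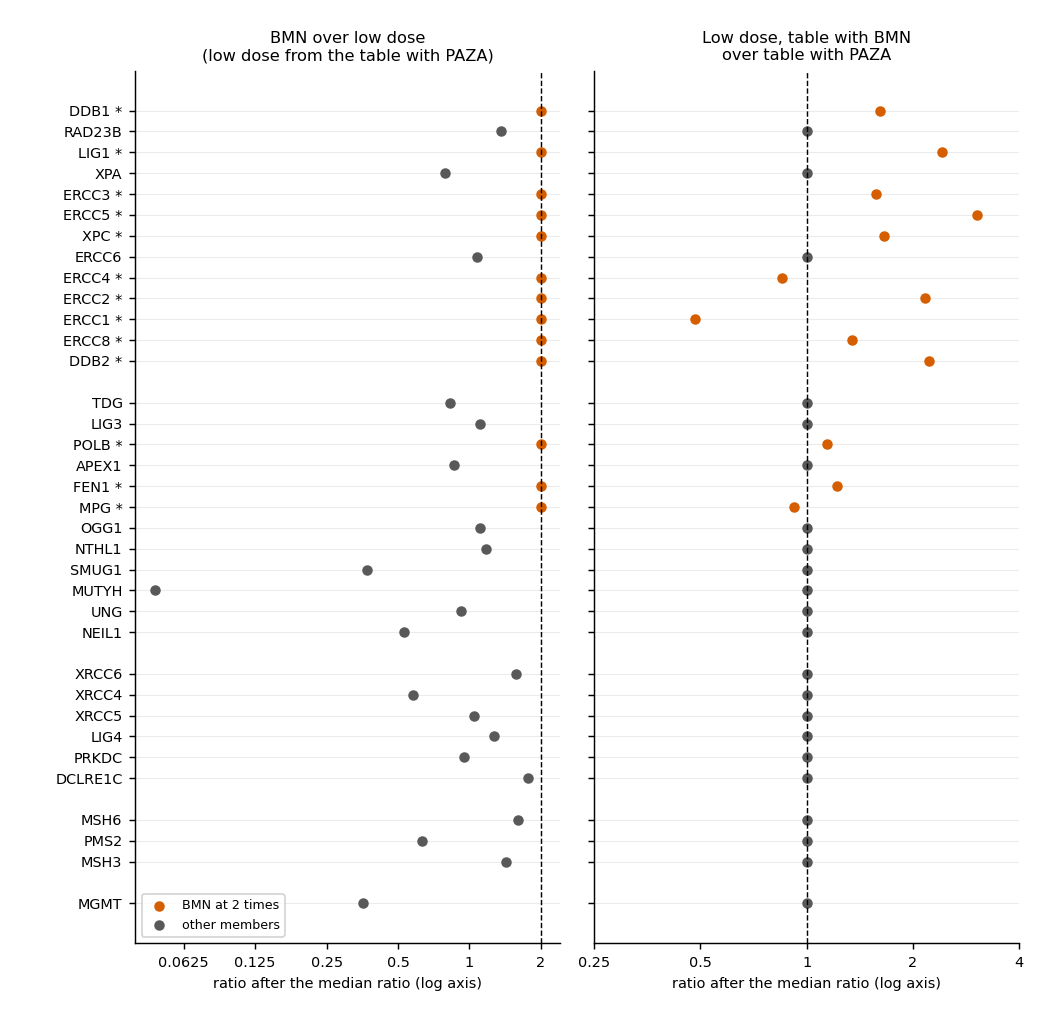
The left panel plots BMN over low dose for 35 repair genes and the right panel plots the low-dose value of the table with BMN over that of the table with PAZA, both after the median ratio and on log axes. The 13 genes in orange sit on 2 at the left and between 0.484 and 3.03 at the right, while the 22 others sit within 0.5% of 1 at the right.

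Levels spanned a wide range within the set. In Control 13 of 35 members were under 5 scaled FPKM, 18 were between 5 and 50, and 4 were at 50 or more. The median member stood at 7.83 in Control, 6.62 in PAZA, 7.03 at the low dose and 5.63 at the high dose, and the median shared symbol at 7.38 to 8.94 over the 5 libraries. In BMN the median member stood at 13.3. Over the 22 genes outside the multiple the median was 11.7 in BMN, 9.77 in Control, 10.4 in PAZA, 10.01 at the low dose and 9.34 at the high dose. NEIL1 in Control was the single value at 0.

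**Figure D2:**
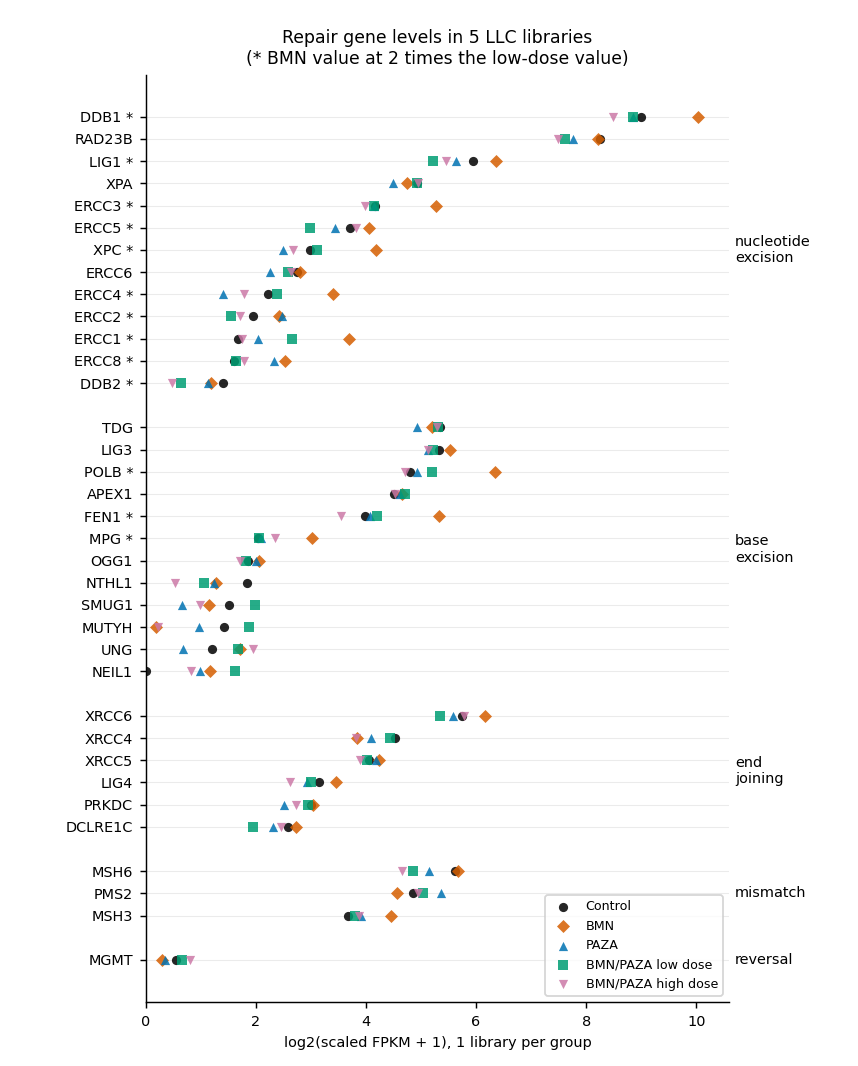
Each row is a repair gene and each symbol 1 library, on a log2(scaled FPKM + 1) axis, grouped by role and ordered by level, with an asterisk on the 13 genes whose BMN value is 2 times the low-dose value. BMN is the highest library in 11 of the 13 asterisked rows, as in DDB1 at 1039 against 357 to 512, and in 10 of the 22 others. The multiple by itself puts BMN above the low dose in every asterisked row, so the 11 and the 10 are not like counts.

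Damage recognition in nucleotide excision repair rests on XPC, with its partner RAD23B, and on the DDB1 and DDB2 complex, which finds UV lesions. Expression of DDB1 was 512 in Control, 463 in PAZA, 1039 in BMN, 463 at the low dose and 357 at the high dose. It was highest in BMN, at 2.03 times Control, and the 4 other libraries lay within 1.44 times of each other. DDB2, the subunit that contacts the lesion, was far lower, at 1.64 in Control, 1.18 in PAZA, 1.27 in BMN, 0.566 at the low dose and 0.382 at the high dose. XPC stood at 17.04 in BMN, 6.95 in Control, 4.62 in PAZA, and 7.59 and 5.36 at the low and high dose, so that without BMN it ranged 1.64-fold.

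RAD23B, which steadies XPC and lies on chromosome 4 from 55350042 to 55392237 (RefSeq, GRCm38.p6, as for the genes placed after it), was one of the 3 nucleotide excision genes outside the multiple and the second most abundant member. Its levels were 302 in Control, 217 in PAZA, 296 in BMN, 195 at the low dose and 178 at the high dose. Control and BMN lay together, and the 3 libraries with PAZA lay lower, with log2 fold changes against Control of -0.48, -0.63 and -0.76 for PAZA, low dose and high dose. The last 2 passed 1.5-fold, and neither did with median-ratio scaling (-0.55 and -0.52), in which each column was divided by its median ratio to the mean of the 5 libraries.

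Opening of the damaged stretch is done by the helicases of TFIIH, ERCC2 (XPD) and ERCC3 (XPB). ERCC3 was nearly level outside BMN, at 16.8 in Control, 16.8 in PAZA, 37.6 in BMN, 16.7 at the low dose and 14.9 at the high dose. For ERCC2 the order was another, with 2.84 in Control, 4.53 in PAZA, 4.33 in BMN, 1.93 at the low dose and 2.26 at the high dose. PAZA was its highest library, and the low dose stood below PAZA by a log2 fold change of -0.92, the lowest of any member in that comparison. Both depend on the table used. After the median ratio, the PAZA value used was 1.08 times as high as in the other table. The low-dose value in the table with BMN was 2.16 times the one in the table with PAZA.

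Incision 5′ of the lesion is made by ERCC4 (XPF) with ERCC1, and 3′ of it by ERCC5 (XPG). ERCC1 was at 11.97 in BMN, 2.20 in Control, 3.09 in PAZA, and 5.33 and 2.35 at the low and high dose. After BMN its low dose was the highest library, 2.27 times the high dose, with a log2 fold change of 0.98 against Control. Its partner ERCC4 stood at 3.66 in Control, 1.66 in PAZA, 9.54 in BMN, 4.25 at the low dose and 2.44 at the high dose, lowest in PAZA at 0.453 times Control. ERCC5 was the member with the lowest low-dose level relative to the high dose, at 12.1 in Control, 9.89 in PAZA, 15.5 in BMN, 6.91 at the low dose and 13.1 at the high dose, a log2 fold change of -0.83. In the table with BMN the low-dose value of ERCC5 was 3.03 times as high, and that of ERCC1 0.484 times, after the median ratio. The low-dose rankings of both genes therefore depend on the table used.

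ERCC8 (CSA) and ERCC6 (CSB) couple repair to a stalled RNA polymerase, and LIG1 seals the final nick. ERCC8 was 2.05 in Control, 3.996 in PAZA, 4.73 in BMN, 2.11 at the low dose and 2.44 at the high dose, which put PAZA at 1.95 times Control and BMN at 2.31 times. The BMN value of ERCC8 stood at the multiple, and its PAZA value was 1.08 times as high as in the other table, after the median ratio. LIG1 was highest in BMN and lowest at the low dose, at 60.4 in Control, 48.8 in PAZA, 80.8 in BMN, 35.97 at the low dose and 42.6 at the high dose. In the table with BMN the low-dose value of LIG1 was 2.42 times as high, after the median ratio, so this order depends on the table used. The 2 remaining genes, ERCC6 and XPA, ran from 3.78 to 5.98 and from 21.4 to 29.8, and neither passed 1.5-fold in any of the 8 pairs of libraries.

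Base excision repair began with lower levels, since 7 of its 8 glycosylase genes had a mean under 5 scaled FPKM. MUTYH, on chromosome 4 from 116807636 to 116819439, removes adenine paired with oxidised guanine and had 1.67 in Control, 0.948 in PAZA, 0.140 in BMN, 2.65 at the low dose and 0.172 at the high dose. BMN and the high dose were both under 0.2 and the low dose was 15.4 times the high dose, so MUTYH had the highest log2 fold change of any member between the doses, 1.64. NEIL1, a glycosylase for oxidised bases, was listed at 0 in Control and at 0.982 in PAZA, 1.24 in BMN, 2.08 at the low dose and 0.762 at the high dose. No fold against Control is given for it, since a value listed at 0 without counts can be a failed estimate, although it is counted as higher than Control in the comparisons.

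SMUG1, which removes uracil and its oxidised forms, ranged 5.19-fold, with 1.87 in Control, 0.568 in PAZA, 1.23 in BMN, 2.95 at the low dose and 0.977 at the high dose. Its lowest library was PAZA and its highest the low dose, a log2 fold change of 1.33 between them, the highest of any member in that pair. NTHL1, a glycosylase for oxidised pyrimidines, was highest in Control, at 2.57 in Control, 1.36 in PAZA, 1.42 in BMN, 1.07 at the low dose and 0.451 at the high dose. All 4 treated libraries were lower than Control, and its log2 fold change was -1.30 at the high dose.

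MPG, the glycosylase for alkylated purines, was at 7.05 in BMN, 3.13 in Control, 3.26 in PAZA, and 3.14 and 4.06 at the low and high dose, level over the other libraries to within 1.30-fold. The remaining glycosylases UNG, OGG1 and TDG ran from 0.592 to 2.88, from 2.28 to 3.14 and from 29.4 to 39.8. UNG, which removes uracil, passed 1.5-fold upward against Control at the high dose (log2 fold change 0.76) and against PAZA at the low dose (1.002). OGG1 and TDG passed it in no pair.

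The genes that act after the glycosylases were APEX1, POLB, FEN1 and LIG3. APEX1, the endonuclease that cuts at the empty site, had 21.7 in Control, 23.6 in PAZA, 24.2 in BMN, 24.98 at the low dose and 21.9 at the high dose, within 1.15-fold over all libraries but BMN. POLB, the gap-filling polymerase, had 80.6 in BMN, 26.9 in Control, 29.3 in PAZA, and 35.9 and 25.1 at the low and high dose. FEN1, the flap endonuclease, had 39.2 in BMN, 14.8 in Control, 15.8 in PAZA, and 17.4 and 10.7 at the low and high dose, and its low dose was 1.62 times the high dose. LIG3, a ligase of this pathway, ran from 33.8 to 45.1 and passed 1.5-fold nowhere.

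The 6 end joining genes in the 3 tables held none of the 13 multiples, and their values repeated between tables. XRCC6 (Ku70), which clamps broken ends, was 52.8 in Control, 46.6 in PAZA, 70.2 in BMN, 39.8 at the low dose and 53.9 at the high dose. It was lowest at the low dose and highest in BMN, a log2 fold change of -0.80 for low dose against BMN. Its partner XRCC5 (Ku80) ran only from 13.8 to 17.9. DCLRE1C (Artemis), the nuclease that trims ends, was also lowest at the low dose, at 5.02 in Control, 3.97 in PAZA, 5.65 in BMN, 2.85 at the low dose and 4.51 at the high dose.

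XRCC4, the scaffold of the ligase LIG4, split the libraries another way. It was 21.99 in Control, 16.01 in PAZA, 13.3 in BMN, 20.5 at the low dose and 13.1 at the high dose, with BMN and the high dose lowest and nearly equal, and Control and the low dose highest. The fold was -0.68 on the log2 scale for BMN against Control and 0.59 for low dose against BMN. LIG4 ran from 5.16 to 10.00 and the kinase PRKDC from 4.72 to 7.18, PRKDC passing 1.5-fold in no pair. NHEJ1 was listed at 0.487 FPKM in PAZA and 0.492 FPKM at the low dose in the table that holds both, and at 0 in both columns of the table of BMN and low dose.

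Of the mismatch repair genes, MSH6, which reads base mismatches and lies on chromosome 17 from 87975050 to 87990892, had 48.2 in Control, 34.5 in PAZA, 49.8 in BMN, 27.8 at the low dose and 24.2 at the high dose. BMN was 1.03 times Control, and the 3 libraries with PAZA were all lower, with log2 fold changes against Control of -0.47, -0.77 and -0.96. With median-ratio scaling these were -0.36, -0.69 and -0.73, in the same direction and with the same 2 past 1.5-fold. MSH3, which reads longer loops, was highest in BMN instead, at 11.7 in Control, 14.1 in PAZA, 20.8 in BMN, 12.99 at the low dose and 13.7 at the high dose. PMS2, the endonuclease of the pathway, was highest in PAZA and ran from 22.5 to 40.1. MGMT was under 1 scaled FPKM in every library, at 0.463 in Control, 0.271 in PAZA, 0.229 in BMN, 0.575 at the low dose and 0.753 at the high dose, with the high dose highest.

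Once BMN was set aside, the set ranged about as far as all symbols did. Over Control, PAZA, low dose and high dose, the median range from lowest to highest was 0.61 on the log2 scale for the 35 members and 0.61 for all 13979 symbols. Members with a mean of at least 5 were 20, with a median range of 0.50 and none past 2-fold. All symbols with such a mean had a median range of 0.59, and 1265 of 8220 passed 2-fold. The 5 members past 2-fold on this scale, with 1 added to each value, were MUTYH, NEIL1, SMUG1, UNG and NTHL1, all glycosylases with a mean under 5, beside 2728 of all 13979 symbols, a larger share. NEIL1 passed only through its Control value of 0. Over PAZA, low dose and high dose its log2 range was 0.81. As plain ratios of scaled FPKM, ERCC1 (2.42), ERCC2 (2.35), ERCC4 (2.56), DDB2 (4.29) and MGMT (2.78) passed 2-fold too. How many fragments stand behind such values cannot be told without counts.

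**Figure D3:**
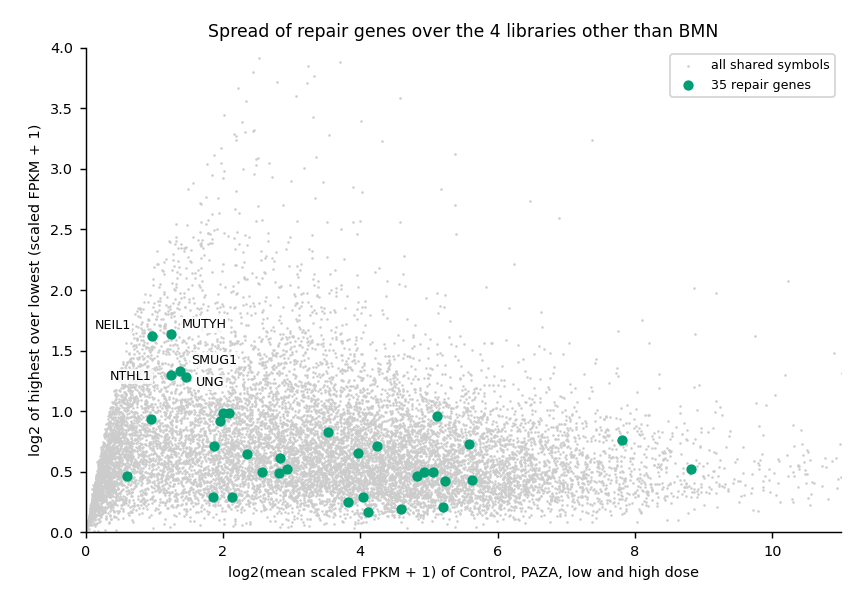
The range from lowest to highest library is plotted against the mean over Control, PAZA, low dose and high dose, both on the log2(scaled FPKM + 1) scale, for 35 repair genes in green and all shared symbols in grey, of which 54 lie outside the axes. The repair genes lie within the grey cloud, and the 5 named glycosylases, on the left, are the ones above a log2 range of 1, NEIL1 only through its Control value of 0.

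PAZA against Control asked what the azacytidine polymer does without BMN. Among 35 members 2 were higher (ERCC8 and NEIL1), against a background of 10.5% of all symbols, and 3 were lower (ERCC4, NTHL1 and SMUG1), against 14.0%. The members' median log2 fold change was -0.21, and -0.35 over the 22 outside the multiple, with 16 of the 22 below 0 beside 56.4% of all symbols, while the median of all symbols was -0.068. Taking the PAZA values of the 13 from the other table would divide them by 1.08. No end joining or mismatch gene passed 1.5-fold in this pair. With median-ratio scaling ERCC2 and the mismatch gene PMS2 (0.60) passed as higher too, and NTHL1 no longer passed as lower. Among members at 5 or more in both libraries 0 passed either way, and with a pseudocount of 0.1 in place of 1 there were 7 lower. Skeletal muscle markers were higher in 6 of 6 (median log2 fold change 1.93), fibroblast markers in 3 of 6 (0.65) and endothelial ones in 2 of 5 (0.48), epidermal keratins were lower in 4 of 4 (-2.59) and leukocyte markers in 1 of 6 (median 0.15), and their part was not tested.

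BMN against Control had 11 members higher, where 13.2% of all symbols were, and 2 lower, where 6.89% were. Of the 11, the 9 genes DDB1, ERCC1, ERCC3, ERCC4, ERCC8, XPC, FEN1, MPG and POLB stood at the multiple of 2. Outside it MSH3 (log2 fold change 0.78) and NEIL1, listed at 0 in Control, were higher and MUTYH (-1.23) and XRCC4 were lower, 2 of 22 each way. The median was 0.19 over all members and 0.050 over the 22, beside 0.093 over all symbols. Fibroblast and skeletal muscle markers were also higher in 6 of 6 each (medians 1.39 and 3.57), epidermal keratins in 3 of 4 (1.89) and endothelial markers in 3 of 5 (0.74), leukocyte markers were lower in 1 of 6 (median 0.15), and their part in this pair was not tested.

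The low dose against Control placed 2 members higher (ERCC1 and NEIL1) beside 11.3% of all symbols, and 7 lower beside 12.8%. The 7 were DCLRE1C, DDB2, ERCC5, LIG1, MSH6, NTHL1 and RAD23B, and with median-ratio scaling DCLRE1C and RAD23B no longer passed. Of the genes named, ERCC1, DDB2, ERCC5 and LIG1 stood at the multiple, and their low-dose values differ in the table with BMN. At the high dose 2 members were higher (NEIL1 and UNG) beside 8.49%, and 6 were lower (DDB2, MSH6, MUTYH, NTHL1, RAD23B and XRCC4) beside 18.1%, of which RAD23B and XRCC4 no longer passed with that scaling. The 2 comparisons share the Control library, and the members' medians were -0.032 for the low dose and -0.17 for the high dose, beside -0.034 and -0.17 for all symbols. Among members at 5 or more in both libraries 0 were higher at either dose, and 4 were lower at the low dose and 3 at the high dose. Epidermal keratins were lower in 4 of 4 at both doses (medians -3.44 and -2.40) and skeletal muscle markers higher in 2 of 6 and 6 of 6 (0.17 and 3.68), and at most 2 markers of each other cell type passed 1.5-fold. The part of these cells was not tested.

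In the low dose against BMN the multiple fixes most of the count of lower members. Lower were 17 of 35 members where 18.6% of all symbols were, and higher were 3 (MUTYH, SMUG1 and XRCC4) where 9.41% were. Of the 17, 12 stood at the multiple, which by itself puts a low-dose value below BMN, and DDB2, the other of the 13, had a log2 fold change of -0.54. The other 22 members held 5 lower genes (DCLRE1C, MSH3, MSH6, RAD23B and XRCC6), or 22.7%, and 3 higher. Their median log2 fold change was -0.15 beside -0.14 for all symbols, against -0.54 with the 13 included. With median-ratio scaling MSH3 and RAD23B no longer passed and PMS2 passed as higher, leaving 3 lower and 4 higher of the 22. With both columns taken as listed from the table that holds this pair, 7 of 35 members were lower and the median was -0.093. The low-dose values of the 13 differ there. The columns were also not scaled, at sums of 559054 FPKM for BMN and 662599 FPKM for the low dose, so values and scaling changed together. Of the 22, whose values repeat between tables, 2 were then lower and 4 higher. Markers of other cell types were lower here too, in 6 of 6 for fibroblasts (median log2 fold change -1.24), 6 of 6 for skeletal muscle (-3.11), 4 of 4 for epidermis (-5.43), 2 of 5 for endothelium (-0.49) and 1 of 6 for leukocytes (-0.059), and their part was not tested.

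Written by their roles, the lower genes of this pair were 10 of 13 in nucleotide excision, 3 of 12 in base excision, 2 of 6 in end joining and 2 of 3 in mismatch repair. Without the 13, nucleotide excision kept 1 of 3 and base excision 0 of 9, where the median was 0.043. The 48 further genes of these pathways held 12 lower and 2 higher (18.6% and 9.41% of all symbols), and 2 each way without the 10 at the multiple. Of 16 proliferation genes 4 were lower and 0 higher, with a median of -0.18. Without TYMS, which stood at the multiple, 3 of 15 were lower, with a median of -0.16.

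The high dose against BMN rested on the same BMN values. It had 16 of 35 members lower beside 24.0% of all symbols, and 0 higher beside 6.15%. Without the 13 genes 4 of 22 were lower, LIG4, MSH6, NTHL1 and RAD23B, with a median of -0.29 beside -0.27 for all symbols. With median-ratio scaling, which moved the median of all symbols by 0.27, 8 members were lower and 2 (MGMT and PMS2) higher, and of the 4 genes outside the multiple only MSH6 (-0.66) still passed. Fibroblast markers were lower in 6 of 6 (median -1.05) and epidermal keratins in 4 of 4 (-4.28), leukocyte markers in 2 of 6 (-0.42) and endothelial ones in 1 of 5 (-0.41), while 1 of 6 skeletal muscle markers was higher (0.30), and their part was not tested. That scaling also moved the all-symbol median by 0.18 in high dose against Control, 0.15 in low dose against BMN and -0.12 in low dose against high dose.

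The low dose against PAZA set the combination beside its carrier. Higher were 7 members (ERCC1, ERCC4, MUTYH, NEIL1, SMUG1, UNG and XPC) beside 9.36% of all symbols, and lower were ERCC2 and ERCC8 beside 8.07%. Of the 7 genes, 4 were glycosylases of base excision repair outside the multiple. With both columns of the table that holds this pair 4 members were higher, and among members at 5 or more in both libraries 0 were. Skeletal muscle markers were lower in 6 of 6 (median -1.69), epidermal keratins in 4 of 4 (-0.93), fibroblast markers in 2 of 6 (-0.44), endothelial ones in 2 of 5 (-0.41) and leukocyte ones in 1 of 6 (-0.21), and their part was not tested. The medians were 0.075 for the members and 0.031 for all symbols.

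The low dose against the high dose had 7 members higher (ERCC1, ERCC4, FEN1, MUTYH, NEIL1, SMUG1 and XRCC4) beside 12.5% of all symbols, and ERCC5 lower beside 6.50%. Among the 22 outside the multiple 4 were higher and 0 lower. Median-ratio scaling left 4 of the 7, and ERCC4, FEN1 and XRCC4 no longer passed, while DCLRE1C passed as lower. Among members at 5 or more in both libraries 2 were higher. Skeletal muscle markers were lower in 6 of 6 (median -3.48), epidermal keratins in 4 of 4 (-1.47) and fibroblast markers in 2 of 6 (-0.11), leukocyte ones were higher in 1 of 6 (0.052) and endothelial ones in 0 of 5 either way (-0.079), and their part was not tested. The members' median was 0.13 and that of all symbols 0.13.

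**Figure D4:**
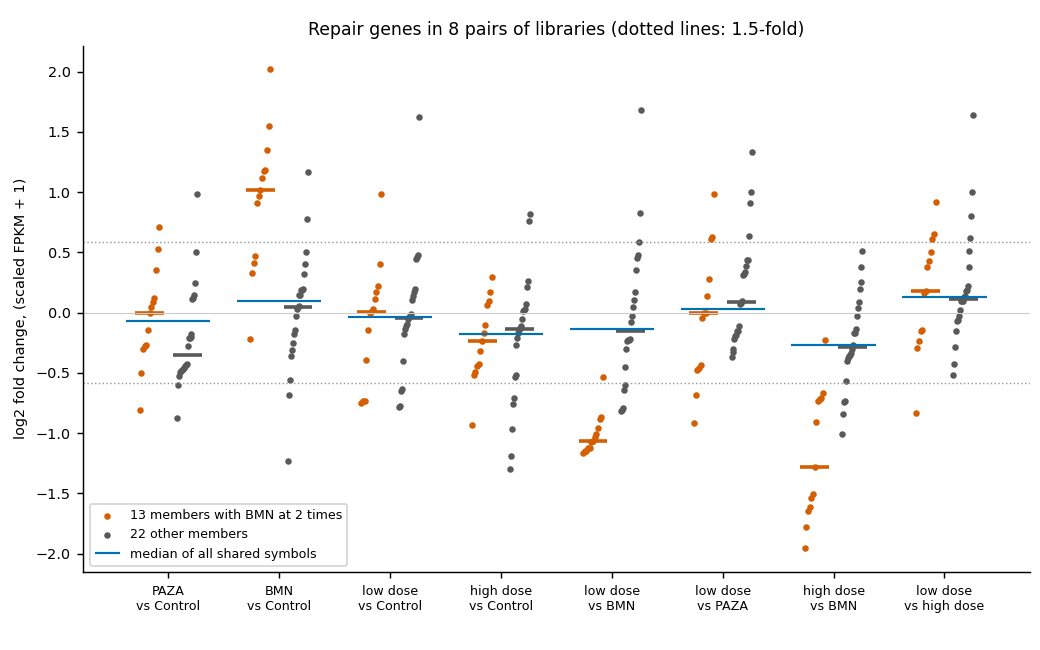
Log2 fold changes of 35 repair genes are plotted for 8 pairs of libraries, with the 13 genes at the multiple in orange, the 22 others in grey, short bars at each median and a blue line at the median of all symbols. Orange points leave the blue line in the 3 pairs with BMN, with medians of 1.02, -1.06 and -1.28, while the grey medians there lie at 0.050, -0.15 and -0.29. The multiple itself fixes the orange points for low dose against BMN, and the other pairs with BMN use the same BMN values.

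Among further genes of these pathways from the written list, such as TFIIH subunits, replication clamps and alkyl-removing dioxygenases, 48 were in the tables. Against Control, 4 were higher and 7 lower in PAZA (background 10.5% and 14.0% of all symbols), 4 and 4 at the low dose (11.3% and 12.8%), and 4 and 7 at the high dose (8.49% and 18.1%). BMN had 11 higher and 1 lower of 47 with a value (13.2% and 6.89%), and 1 each way without the 10 at the multiple. The high dose against BMN had 2 higher and 15 lower (6.15% and 24.0%), and 2 and 5 without the 10. The low dose had 3 higher and 3 lower against PAZA (9.36% and 8.07%), and 7 higher and 0 lower against the high dose (12.5% and 6.50%).

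Of the 36 genes, 18 have an exon that overlaps an exon of another named gene of GRCm38, and for 17 the other gene lies on the opposite strand. ERCC1 is one of them, with the antisense gene CD3EAP, and so are DDB1, LIG1, FEN1, XRCC6 and MSH6. Whether fragments were counted by strand is not given in the sources used here, and without strand the reads of such partners cannot be told apart.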

How the data were processed

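RNA was sequenced from LLC samples of 5 groups with 1 library each. Per the labels, the authors aligned reads to GRCm38 with tools that include HISAT2 and StringTie (versions not given in the sources used here), and they deposited the resulting values, taken here as FPKM normalised by transcript length and library size, in 5 tables of 2 libraries each. The unit is inferred, since the headers name none. Without counts, sequencing depth is unknown. The low-dose column of the table with the high dose sums to 1918260 and the other columns to between 522083 and 662599, and 99.99% of that column had 6 or fewer significant digits once divided by 3.6.

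Control and PAZA were taken from their shared table, BMN and high dose from theirs, and the low dose from the table with the high dose. The highest-mean row of a repeated symbol was used, and each column was scaled to 1000000 over 13979 shared symbols. Fold changes used log2(value + 1), and a gene past 1.5-fold was counted, with genes at 0 in both libraries left out. No test was run. BMN was compared with the low dose of the table with PAZA after the median ratio between tables, with a tolerance of 0.5%.

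The members and lists were chosen with earlier results of these data known. Values in all 5 libraries are given for members past 1.5-fold in PAZA against Control, low dose against BMN or low dose against high dose, for the extreme fold of each pair, for members at the multiple and for XPC, APEX1, XRCC6, MSH6 and MGMT. Alternatives were a pseudocount of 0.1, members at 5 or more in both libraries, median-ratio scaling, summed rows of a symbol, the low dose from the table with PAZA, both columns of a deposited table, leaving out members at the multiple, and tolerances of 0.2% and 1%. The steps were tested on simulated data. Positions are from RefSeq on GRCm38.p6 and exons from GENCODE M21. Software was Python 3.11.15 with pandas 2.3.3, numpy 2.4.6 and matplotlib 3.10.9.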

Additional observations from a re-analysis of the deposited data

Results flagged for a closer look

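MUTYH differed in opposite directions between BMN against Control and the low dose against PAZA. Its log2 fold change was -1.23 for BMN against Control (0.140 and 1.67 scaled FPKM) and 0.91 for the low dose against PAZA (2.65 and 0.948), a difference of 2.14. Each side has 1 library, so the difference was not tested, and all 4 values are low. At the high dose MUTYH stood at 0.172, below PAZA, so the opposite direction holds for the low dose only. ERCC8 also passed 1.5-fold in opposite directions, at 0.91 and -0.69, but its BMN value stood at 2 times that of the low dose.

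NHEJ1, a gene outside the 3 tables used for comparisons, was listed in the table of PAZA and low dose at 0.492 FPKM in the low dose. In the table of BMN and low dose the same low-dose library was listed at 0 for it.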

How the results depend on the processing

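No paired analysis was possible because each group has 1 library. Depth is unknown, which limits results for genes under 5 scaled FPKM. All alternatives were listed in advance, and the cause of a shift was not tested unless the setting itself is the cause. Summing repeated symbols and tolerances of 0.2% and 1% moved no count. Taking the low dose from the table with PAZA moved the higher members in low dose against BMN from 3 to 2, as XRCC4 no longer passed, and no other count of members. These low-dose values repeated those already used in every member, after the median ratio, so this setting could change little beyond the scaling. The low-dose column of the table with BMN, which differs in the 13, was tried only against BMN.

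With both columns of a deposited table, values were used as listed, without the scaling. The members' median log2 fold change was then -0.23 for high dose against BMN and -0.093 for low dose against BMN. It was 1.72 for low against high dose, where the low-dose column sums to 1918260 FPKM. Higher members then were 34 for low against high dose and 4 for low dose against PAZA. Lower members were 10 for high dose against BMN, 7 for low dose against BMN, 0 for low against high dose and 1 for low dose against PAZA.

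With median-ratio scaling, medians were -0.17 for high dose against BMN, 0.058 for high dose against Control, -0.40 for low dose against BMN and -0.0098 for low against high dose. Higher members were 2 for high dose against BMN, 4 for low against high dose and 4 for PAZA against Control, and lower members were 8 for high dose against BMN and 2 for low against high dose.

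With only members at 5 or more in both libraries, the median for low dose against BMN was -0.64. Higher members were 6 for BMN against Control, 1 for low dose against BMN, 2 for low against high dose, and 0 for high dose, low dose and PAZA against Control and for low dose against PAZA. Lower members were 1 for BMN, 3 for high dose, 4 for low dose and 0 for PAZA against Control, 9 for high dose against BMN and 0 for low dose against PAZA.

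With a pseudocount of 0.1, the median for high dose against BMN was -0.60. Higher members were 1 for high dose against BMN, 5 for low dose against BMN and 5 for low dose against Control, and lower members were 4 for BMN against Control, 2 for low against high dose and 7 for PAZA against Control.

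Without the 13 members at the multiple, medians were 0.050 for BMN against Control, -0.29 for high dose against BMN, -0.15 for low dose against BMN and -0.35 for PAZA against Control. Higher members were 2 for BMN, 1 for low dose and 1 for PAZA against Control, 4 for low against high dose and 4 for low dose against PAZA. Lower members were 4 for high dose against BMN, 5 for low dose against BMN, 4 for low dose against Control, and 0 for low against high dose and for low dose against PAZA.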
